A study of Homo sapiens with 8 samples.

Results

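The oxidative phosphorylation subunits are the nuclear-coded proteins of complexes I to V, and their transcripts were followed here in colon cancer cells with mutant or wild-type K-ras at 2 oxygen levels. Members were the genes whose symbols start with NDUFA, NDUFB, NDUFC, NDUFS, NDUFV, UQCR, COX4, COX5, COX6, COX7, COX8 or ATP5, together with the SDH genes and CYC1, taken from probe sets annotated to exactly 1 gene. The NDUFAF assembly factors were left out. The rule found 83 genes of 19775, with 158 probe sets. Of these, 78 are protein-coding, and the rule also caught 2 pseudogenes (ATP5MC2P1 and COX6A1P1) and 3 non-coding RNAs (NDUFB2-AS1, NDUFV1-DT and NDUFV2-AS1). Each gene was read from its brightest probe set, by mean log2(signal + 16).

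RNA was hybridised to 8 Affymetrix HG-U133 Plus 2.0 arrays. The lines were DKS-5, whose K-ras is mutant, and DKO-3, given as wild-type for K-ras and also as its knockout. Each was kept at 21% O2 (normoxia) or at 1% O2 for 12 h (hypoxia), which makes 4 groups of 2 arrays. Both are known as clones of the colon cancer line DLD-1, DKO-3 having its mutant K-ras allele disrupted, and each genotype is represented by 1 line, so genotype and clone cannot be told apart. Whether the arrays of a group came from separate cultures is not stated, so p-values measure only how far these samples spread, which may be technical spread. The level of K-ras itself is not analysed here.

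Oxidative phosphorylation passes electrons from NADH through complex I, or from succinate through complex II, to ubiquinone, then through complex III and cytochrome c to complex IV, where oxygen is reduced. The proton gradient that complexes I, III and IV build drives ATP synthesis by complex V. In low oxygen, cells are known to divert pyruvate from the mitochondrion through PDK1, to remove mitochondria through BNIP3 and BNIP3L, to induce miR-210, which targets iron-sulfur cluster assembly, and in some tissues to exchange the COX4I1 subunit of complex IV for COX4I2. The subunit genes themselves are known as targets of the transcription factors NRF1 and GABPA, an ETS protein.

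The sequences below are those upstream of the 3 members on which the results turn, ATP5F1C (the line difference), COX8A and NDUFA11 (the largest hypoxia differences), and the mature miRNA whose host transcript rose. Promoters come from RefSeq (GRCh38.p14), which matched 69 of the 83 members, and each printed sequence is the 120 bases before the annotated start of transcription, on the gene's strand. Capitals mark a motif match in ATP5F1C (the NRF1 site) and in COX8A (ETS, CCGGAAG on the opposite strand), the hypoxia response core GCGTG in NDUFA11, and the seed (bases 2 to 8) in the miRNA.
ATP5F1C, chr10:7788057-7788176, plus strand: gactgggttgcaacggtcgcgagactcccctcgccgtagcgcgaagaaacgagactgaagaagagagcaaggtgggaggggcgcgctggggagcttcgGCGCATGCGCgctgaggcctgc
COX8A, chr11:63974500-63974619, plus strand: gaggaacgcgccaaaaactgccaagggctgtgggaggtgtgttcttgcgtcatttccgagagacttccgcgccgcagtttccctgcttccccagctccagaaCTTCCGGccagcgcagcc
NDUFA11, chr19:5903791-5903910, minus strand: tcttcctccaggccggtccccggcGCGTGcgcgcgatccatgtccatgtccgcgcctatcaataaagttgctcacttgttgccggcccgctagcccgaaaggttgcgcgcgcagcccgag
hsa-miR-210-3p, chr11:568112-568133, minus strand: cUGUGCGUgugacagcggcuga

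Motifs were searched on both strands of a 300-base window, 250 bases before to 50 after the start, in the 69 member promoters and in all 27305 promoters of the table. The ETS motif CCGGAAG was found in 18 member promoters (26.1%) and in 10.7% of all promoters, among the members in those of COX4I1, COX5B, COX6A1, COX8A and UQCR11. The NRF1 motif, spelled by the capitals in the ATP5F1C sequence, was found in 4 (5.80%, against 1.36%), those of ATP5F1C, NDUFA8, NDUFB4 and SDHD. The 5-base hypoxia response cores were common everywhere, with ACGTG in 27.5% of member promoters and 21.6% of all, and GCGTG in 47.8% and 36.3%. A match is a description of letters and not a binding site, and no test was made of these shares.

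The arrays were not alike in RNA quality or in overall signal, which bears on what follows. The 2% trimmed means of the deposited signals ran from 132.5 to 201, a 1.52-fold range, and every array was scaled to 172.1. The ratio of 3' to 5' signal of the ACTB control, which rises with degraded or shortened RNA, lay between 25.6 and 55.1 on the 4 DKS-5 arrays and between 11.02 and 14.9 on 3 DKO-3 arrays, but at 49.0 in DKO-3 normoxia replicate 1. The labelled colon epithelium was checked by its markers: the summed signal of 12 epithelial markers ran from 16881 to 21759 per array, and 10 of them passed the filter on dim genes, all but CDX1 and LGALS4, though KRT20 only through DKO-3 (301 to 445, against 6.20 to 15.5 in DKS-5), and VIL1 lay near the filter in DKO-3 (12.8 to 17.6). Those of fibroblast and muscle (154 to 261), endothelium (11.9 to 35.4) and blood (35.5 to 80.0) were low. Of their 8, 3 and 5 markers with a probe set, 4, 0 and 1 passed the filter. The 0 calls among them in any comparison therefore say little, since the rest could not have been called. In bulk RNA, fewer cells of a type and less RNA per cell cannot be told apart. Of the epithelial markers, KRT20 was lower in DKS-5 (log2 difference -4.01, mean of both oxygen levels), VIL1 was higher (1.65) and KRT19 was lower (-0.96) and rose in hypoxia (1.20).

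Nearly all subunits had signals well within the range that could be tested. The fit took genes with a mean log2 value past the 40th percentile over probe sets, a signal of about 13.8, and so kept 12735 genes and 76 members: 35 of 36 in complex I, 3 of 3 in complex II, 7 of 7 in complex III, 13 of 18 in complex IV and 18 of 19 in complex V. The members below it were the pseudogenes ATP5MC2P1 and COX6A1P1, the non-coding NDUFV1-DT, and 4 isoforms known from other tissues, COX7A1 of heart and muscle and COX6B2, COX7B2 and COX8C of testis. COX7A1 stayed between 0.92 and 7.45, COX8C between 0.52 and 2.00, and COX6B2 between 1.44 and 17.9. Their general counterparts were brighter on every array, with COX7A2 between 2721 and 3766 and COX6B1 between 1694 and 2327. COX7B lay between 1576 and 2444, and COX8A lower, between 174 and 499. Signals of different probe sets also depend on the probes, so these are not ratios of transcript amounts. NDUFA4, NDUFA4L2 and SDHB are not analysed here.

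No subunit transcript passed the test for a difference between 1% and 21% O2 in either line. With limma and Benjamini-Hochberg adjustment over all genes tested, at a threshold of 0.05, 0 of the 76 members were called in DKS-5, where 0.503% of all genes were called, 0 in DKO-3 (0.346% of all genes) and 0 in the mean of both lines (1.19%). At an unadjusted p under 0.05 the counts were 0, 15 and 9 members, against 6.93%, 10.5% and 14.3% of all genes. The median log2 difference of the members was 0.03 in DKS-5 and 0.07 in DKO-3, where all genes tested had 0.02 and 0.04. In DKO-3, 50 of 76 differences were positive, against 54.4% of all genes. The groups of 2 arrays did not overlap for 10 members higher and 4 lower in DKS-5 hypoxia (19.9% and 15.6% of all genes) and for 26 higher and 12 lower in DKO-3 hypoxia (25% and 17.1%). In the mean of both lines the 95% interval of the difference lay within 1 log2 unit of 0 for 72 of the 76 members, as for 95.3% of all genes. For the bright ones among them, 2-fold changes are outside the interval. For dim members 1 unit on the log2(signal + 16) scale is more than a 2-fold change, so their intervals may still hold one. In DKO-3 alone the interval lay within 1 log2 unit of 0 for 58 of 76 (81.6% of all genes), and it reached past 1 log2 unit for the rest.

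By complex, the DKS-5 medians in hypoxia were -0.01 for complex I, 0.08 for II, 0.07 for III, 0.11 for IV and 0.03 for V. In DKO-3 they were 0.11, 0.31, 0.40, 0.03 and 0.02 in the same order. The pooled SD of a complex's median between replicate arrays ran from 0.09 to 0.14 (log2 units). Taken on the array medians themselves, hypoxia against normoxia in DKO-3 came to 0.35 for complex III, 3.25 times its SD of 0.11, and to 0.17 for complex II, 1.97 times its SD of 0.09; complex II has 3 genes, and SDHC among them differed by -0.31. The other complexes in DKO-3, and all in DKS-5, lay within 1.17 such SDs.

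**Figure D1:**
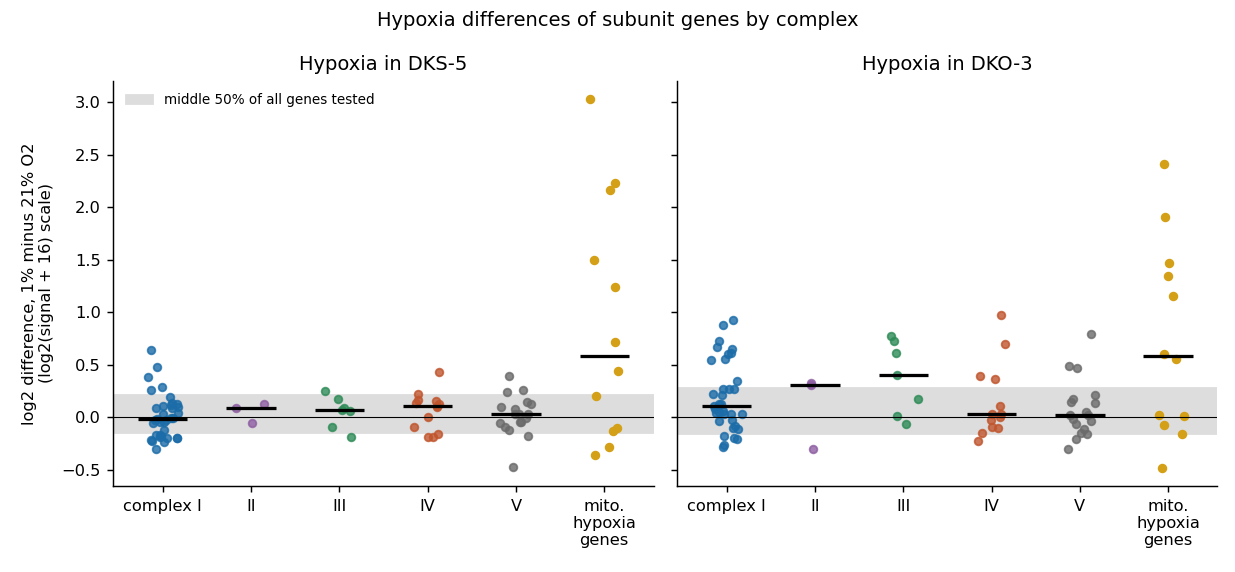
Log2 difference between 1% and 21% O2 (vertical axis, log2(signal + 16) scale) of every tested member, grouped by complex, with 12 hypoxia-responsive mitochondrial genes at the right; DKS-5 is on the left panel and DKO-3 on the right. Points are genes, black bars are medians, and the grey band holds the middle 50% of all genes tested: most subunits lie in or near it, while the complex III median in DKO-3 is 0.40 and MIR210HG reaches 3.03 in DKS-5.

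Some known hypoxia genes of the mitochondrion rose in the same cells. Of 12 hypoxia-responsive mitochondrial genes, 5 rose in DKS-5 (0.503% of all genes were called), 4 rose in DKO-3 (0.346%) and 6 rose in the mean of both lines (1.19%), 0 fell in any of these, and the other 7, 8 and 6 did not pass. BNIP3, the mitophagy receptor named above, was among those that did not pass, and its differences were 0.44 ± 0.30 for DKS-5 and -0.48 ± 0.30 for DKO-3. MIR210HG, the host transcript of the miRNA printed above, gave signals of 8.91 and 15.2 in DKS-5 normoxia and 233 and 191 in hypoxia, and of 15.4 and 14.6 against 194 and 113 in DKO-3. Its log2 difference was 3.03 ± 0.28 (SE, adjusted p = 4.06e-05) in DKS-5 and 2.41 ± 0.28 (adjusted p = 0.000876) in DKO-3. BNIP3L, a receptor for mitophagy, rose by 2.23 and 1.91 log2 units, AK4, a mitochondrial adenylate kinase, by 2.16 and 1.47, and PDK1, which inhibits pyruvate dehydrogenase, by 1.498 and 1.35. PDK1 was also higher in DKS-5 than in DKO-3 over both oxygen levels (0.67 ± 0.16, adjusted p = 0.0153). Without DKO-3 hypoxia replicate 1, which leaves only the other array of that group, the DKO-3 calls of MIR210HG, BNIP3L, AK4 and PDK1 were lost. Their differences were then 2.05, 1.85, 1.55 and 1.62. Nearly every gene called in DKO-3 hypoxia lost its call in that fit, so the losses are not particular to these genes. The PDK1 call between the lines was also lost in that fit. PDK1 also lost its DKS-5 call without DKS-5 normoxia replicate 2 (1.39) and its DKO-3 call without DKO-3 hypoxia replicate 2 (1.08) or normoxia replicate 2 (1.11). Its line call was lost without DKS-5 normoxia replicate 1 or DKO-3 normoxia replicate 2. In each of these fits the share of all genes called fell as well. With the ACTB covariate the line call was lost too (0.38, adjusted p = 0.436), where 3.48% of all genes were called, against 9.11% without it. That line difference was 0.34 (adjusted p = 0.211) with all probe sets averaged and 0.44 (adjusted p = 0.109) with the values as deposited, and 0.53 to 0.61 without the arrays just named. MXI1, a MYC antagonist, rose by 1.24 in DKS-5, and LONP1, the matrix protease that degrades COX4I1, rose by 0.93 in the mean of both lines (adjusted p = 0.0416); these last were picked for naming after their values were seen. ISCU, the iron-sulfur scaffold that miR-210 targets, differed by -0.36 and -0.08 without passing the test.

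Genes around the complexes did not pass in hypoxia either. In the mean of both lines, where only 1.19% of all genes were called, 0 were called of 16 complex I assembly factors, 12 of complexes II, III and V, 20 of complex IV, 15 electron carriers, 12 biogenesis factors, 12 citric acid cycle enzymes and 5 adenine nucleotide and uncoupling carriers. At an unadjusted p under 0.05 the counts were 5, 2, 2, 2, 2, 3 and 0, in all 16 of 92 genes (17.4%, against 14.3% of all genes). The median of the complex I assembly factors was -0.36 for DKS-5 and -0.07 for DKO-3.

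Within complex I, which takes electrons from NADH, the 3 members with the smallest p in the mean of both lines were the accessory subunits NDUFA11, NDUFA13 and NDUFA7. NDUFA11 gave 211 and 339 (normoxia) against 378 and 478 (hypoxia) for DKS-5, and 176 and 365 (normoxia) against 469.7 and 527 (hypoxia) for DKO-3. Every hypoxia array lay above both normoxia arrays of its line, which in both lines held for 4 members (also NDUFA13, NDUFB7 and ATP5MC2) and 8.54% of all genes, and the normoxia arrays of each line differed more among themselves than the hypoxia arrays did. The difference was 0.78 ± 0.22 log2 units, 1.72-fold, with adjusted p = 0.115, so it did not pass. It passed without DKS-5 hypoxia replicate 1 (adjusted p = 0.0457) and without DKO-3 normoxia replicate 2 (adjusted p = 0.0330), but not without DKO-3 normoxia replicate 1 (0.53, adjusted p = 0.432). A second NDUFA11 probe set, 225304_s_at, gave 0.73 ± 0.23 (adjusted p = 0.211). NDUFA13, the GRIM-19 protein, gave 189 and 190.1 in DKS-5 normoxia against 199.8 and 365 in hypoxia, and 132.9 and 263 in DKO-3 normoxia against 270.5 and 472. The lower array of each hypoxia group lay only a little above its normoxia group. The difference of 0.68 ± 0.24 did not pass (adjusted p = 0.215), and it was 0.88 without DKS-5 hypoxia replicate 1. NDUFA7, a dim probe set between 16.6 and 58.9, differed by 0.50 ± 0.20 (adjusted p = 0.283).

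The core subunits of complex I, which carry the flavin and iron-sulfur clusters, gave no call. NDUFS1 was the only tested member lower on every hypoxia array than on the normoxia arrays of its own line in both lines, a pattern seen in 5.23% of all genes. It gave 685 and 625 against 605 and 503 in DKS-5 and 621 and 601 against 587 and 547 in DKO-3. Its difference of -0.17 ± 0.15 was close to the spread between replicates (adjusted p = 0.638). NDUFV1 differed by 0.41, NDUFS7 by 0.34, NDUFS3 by 0.08 and NDUFV2 by 0.03.

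In complex II, SDHA, the flavoprotein that oxidises succinate, gave 1287 and 1319 at 21% O2 and 1628 and 1249 at 1% O2 on the DKS-5 arrays, and 986 and 944 at 21% O2 and 1274 and 1151 at 1% O2 on the DKO-3 arrays. DKO-3 normoxia was lowest, and the DKS-5 groups overlapped. Hypoxia against normoxia came to 0.23 ± 0.14 (adjusted p = 0.470) in the mean of both lines. The membrane anchors SDHC and SDHD differed by -0.11 and 0.13, also without passing.

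In complex III, which passes electrons from ubiquinol to cytochrome c, the largest differences were those of UQCR10, CYC1 and UQCR11. CYC1, cytochrome c1, gave 246 and 189.9 in DKS-5 normoxia and 215 and 281 in hypoxia, with overlapping groups. In DKO-3 it gave 92.4 and 196 in normoxia against 232 and 254 in hypoxia, and normoxia replicate 1 was the outlying value. UQCR11, a small subunit, gave 744 and 766 in DKO-3 normoxia, close together, and 1238 and 1086 in hypoxia, with 806, 925, 949 and 891 in DKS-5. The UQCR11 difference was 0.61 ± 0.19 in DKO-3 (adjusted p = 0.301) and 0.09 ± 0.19 in DKS-5. The other UQCR11 probe set, 223613_at, was dim, and its DKO-3 arrays stood in the opposite order, 56.5 and 74.7 at 21% O2 against 47.4 and 45.0 at 1% O2. UQCRC1 and UQCRC2, the core proteins, differed by 0.24 and -0.08 in the mean of both lines, and UQCRB by -0.09.

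In complex IV, COX8A, the smallest subunit, gave 252 and 319 (normoxia) against 318 and 471 (hypoxia) for DKS-5, and 174 and 314 (normoxia) against 450.4 and 499 (hypoxia) for DKO-3. The DKS-5 groups just overlapped and the DKO-3 groups did not. The differences were 0.43 ± 0.29 in DKS-5 and 0.97 ± 0.29 in DKO-3 (adjusted p = 0.256), and 0.70 ± 0.20 in the mean of both lines (adjusted p = 0.125). The last passed without DKS-5 hypoxia replicate 1 (adjusted p = 0.0282) and without DKO-3 normoxia replicate 2 (adjusted p = 0.0487), but not without DKO-3 normoxia replicate 1 (0.50, adjusted p = 0.445). COX5B differed by 0.25, COX6A1 by 0.27, COX7A2 by 0.04 and COX7A2L, which helps to join complexes III and IV, by 0.04. COX6A2, the heart and muscle form of subunit VIa, was dim at 5.24 to 25.2 and differed by -0.14.

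In complex V, the differences nearest to passing were those of ATP5MC2, 1 of the genes for the c-ring subunit, and ATP5IF1, the inhibitor that blocks ATP hydrolysis. ATP5MC2 gave 101.2 and 96.1 against 117 and 153 in DKS-5, and 50.2 and 123 against 149 and 152 in DKO-3. Hypoxia arrays lay above normoxia arrays in both lines, for a difference of 0.59 ± 0.22 (adjusted p = 0.233). ATP5IF1 gave 4558 and 3716 against 3542 and 6896 in DKS-5 and 3214 and 3144 against 3241 and 6001 in DKO-3. The high values were replicate 2 of each hypoxia group. Another of the 3 ATP5IF1 probe sets, 218671_s_at, gave 1440.3 and 2205 on those arrays, against 1923 to 2416 on the rest. The remaining one, 223339_at, is not described here. In the mean of both lines the brightest probe set differed by 0.37 (adjusted p = 0.412), and by 0.61 without DKS-5 hypoxia replicate 1. ATP5MC1 and ATP5MC3, which code for the same mature c-ring protein, differed by 0.16 and -0.03.

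**Figure D2:**
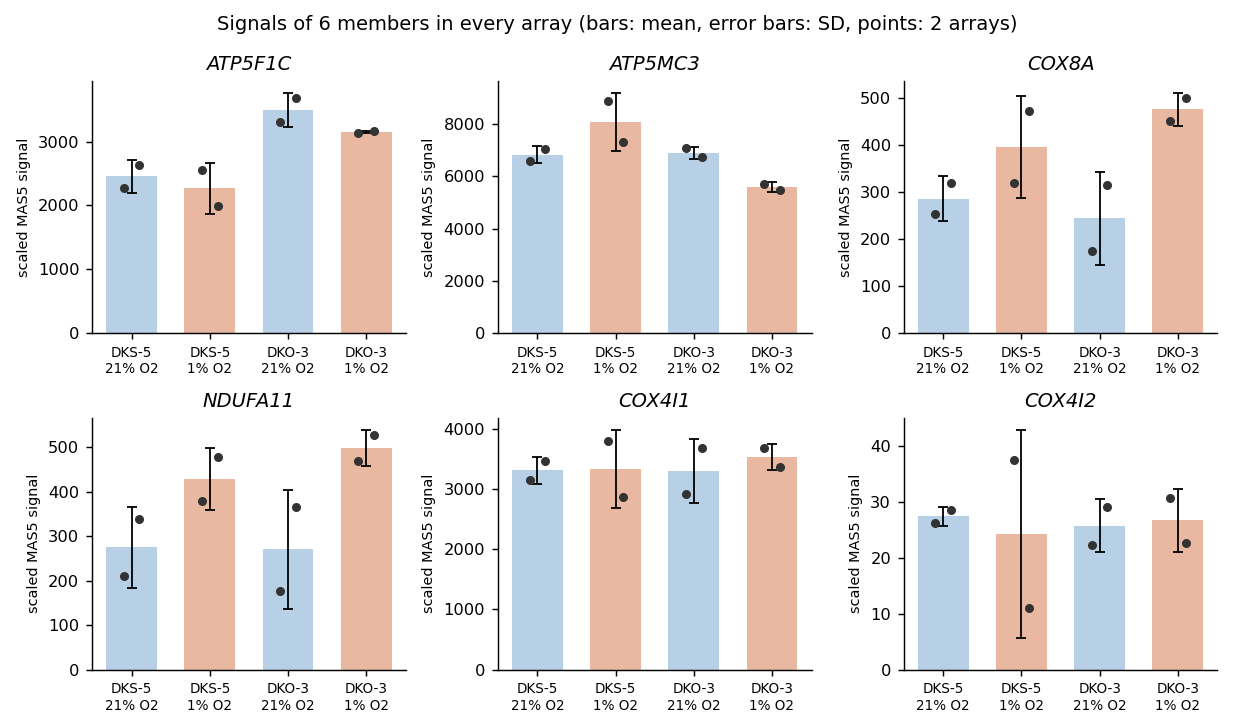
Scaled signal (linear vertical axis, starting at 0) of ATP5F1C, ATP5MC3, COX8A, NDUFA11, COX4I1 and COX4I2 in the 4 groups. Bars are means, error bars 1 SD and points the 2 arrays: COX8A and NDUFA11 are lowest in DKO-3 normoxia replicate 1 (174 and 176), and all 4 DKO-3 points of ATP5F1C (3140.2 to 3686) lie above all 4 DKS-5 points (1990.0 to 2641).

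Neither COX4 isoform passed the test in hypoxia. COX4I1, the general form of the subunit that regulates complex IV, gave 3152 and 3469 at 21% O2 and 3794 and 2875 at 1% O2 on the DKS-5 arrays, and 2924 and 3677 at 21% O2 and 3686 and 3373 at 1% O2 on the DKO-3 arrays. The groups overlapped in both lines, and the mean difference was 0.05 ± 0.12 (adjusted p = 0.889). The other COX4I1 probe sets did not pass either, but they did not all share a direction. In a limma fit over all probe sets, 202698_x_at differed by 0.09 and 213758_at by -0.28 in the mean of both lines. Probe set 227323_at differed by 0.77 ± 0.37 in DKO-3 (adjusted p = 0.561) and by -0.66 ± 0.37 in DKS-5 (adjusted p = 0.883). COX4I2, the isoform known from lung and induced by low oxygen in some cells, was dim, with 26.2 and 28.6 against 37.5 and 11.1 in DKS-5 and 22.4 and 29.1 against 30.7 and 22.7 in DKO-3. The hypoxia arrays of each line lay on both sides of its normoxia arrays or overlapped them, and the difference was -0.08 ± 0.21 (adjusted p = 0.902). The log2 ratio of COX4I2 to COX4I1 within an array differed between hypoxia and normoxia by -0.19 in DKS-5 and -0.07 in DKO-3, a mean of -0.13. An exact two-sided permutation test over 36 arrangements within the lines gave p = 0.5, but the smallest p that this design allows is 0.0556, so the ratio could not have passed, and COX4I2 lay near the filter on dim genes. Without DKS-5 hypoxia replicate 2 the mean was 0.01, so even its sign rested on 1 array.

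Many of the DKO-3 differences in hypoxia were smaller without DKO-3 normoxia replicate 1. Of the 15 members with an unadjusted p under 0.05 in DKO-3, 14 were higher in hypoxia, and 11 of the 15 had their lowest value of the 8 arrays on that array, though members chosen for being higher in DKO-3 hypoxia favour low normoxia arrays. They included NDUFA2, NDUFA7, NDUFA11, NDUFA13, NDUFB4, NDUFB7 and NDUFS7 of complex I, CYC1, UQCR10 and UQCR11 of complex III, COX6A1, COX7B and COX8A of complex IV, and ATP5MC2 of complex V. ATP5MC3 was the lower one. The array was lowest of the 8 for 29 of the 76 members and for 15.1% of all genes, and its member median, as the deviation from each gene's mean, was -0.16, where all genes tested had -0.01. It lay below its replicate for 60 of 76 members but for 48.8% of all genes. Its ACTB ratio was 49.0 and that of its replicate 14.9.

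Without that array, the member median in DKO-3 was -0.01, and 38 of 76 differences were positive. Without the other normoxia array the count was 16 (11.8% of all genes), and with the log2 ACTB ratio as a covariate it was 2 (4.88%), so the counts over all genes moved as well. The COX8A difference in DKO-3 was 0.57 without the array and 0.37 with the covariate, and that of NDUFA11 was 0.43 and 0.24. UQCR11, whose normoxia arrays lay close together, stayed at 0.59 and 0.58, and COX6A1 at 0.53 and 0.51, but with all probe sets of a gene averaged UQCR11 came to 0.11 (adjusted p = 0.843) and COX6A1 to 0.19 (adjusted p = 0.736). The second COX6A1 probe set in that average, 224344_at, lay below the filter on dim genes and was not tested on its own. The complex III median of 0.40 became 0.29 without the array, 0.18 with the covariate and 0.18 when all probe sets of a gene were averaged. The part of RNA quality in these differences was not tested beyond these values.

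**Figure D3:**
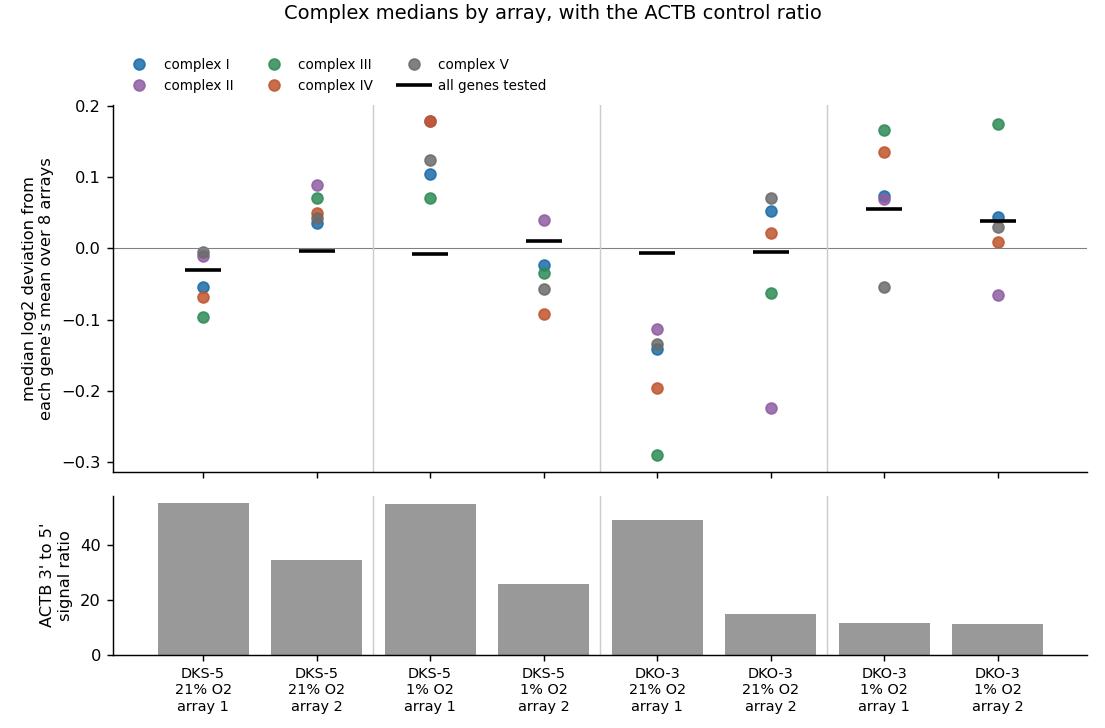
Median deviation of the members of each complex from each gene's mean over all arrays (log2 units, vertical axis) on each of the 8 arrays, with the median of all genes tested, and the ACTB 3' to 5' ratio of each array in the panel of bars. DKO-3 normoxia replicate 1 has the lowest complex III median, -0.29, and a ratio of 49.0, while its replicate has -0.06 and 14.9.

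The same members split by signal. At a mean signal of 1000, a boundary chosen after the values were seen, 33 members lay below and 43 at or above. In DKO-3 the members below it had a median hypoxia difference of 0.34, with 28 of 33 positive, against 0.08 and 60.1% positive for all genes below it. The brighter members, among them COX4I1, ATP5F1B and NDUFB8, had a median of 0.01, where all genes of that signal had -0.12. In DKS-5 the 2 medians were -0.01 and 0.03. Of the 15 members above, 13 had a signal under 1000.

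The hypoxia responses of the lines were also compared directly, as the response of DKS-5 minus that of DKO-3. No member passed (0% of all genes were called), and 2 had an unadjusted p under 0.05, where 2.61% of all genes did. COX6A1, the general form of a small regulatory subunit of complex IV, gave 723 and 918 (normoxia) against 752 and 707 (hypoxia) for DKS-5, and 521 and 653 (normoxia) against 1056 and 862 (hypoxia) for DKO-3. The DKO-3 groups did not overlap and the DKS-5 groups did. The difference of responses was -0.85 ± 0.31 (limma, adjusted p = 1.00). Of all members, 27 of 76 had a positive difference of responses, against 48% of all genes. All 7 complex III members had a negative difference of responses, with a median of -0.34, while complex V had 10 of 18 positive and a median of 0.02. With 1 array left out at a time the complex III median ran from -0.48 (without DKS-5 hypoxia replicate 2) to -0.12 (without DKO-3 normoxia replicate 1). It was -0.14 with the ACTB covariate and -0.20 with all probe sets of a gene averaged. The median of all members was -0.16, of all genes -0.02, and the member median was -0.01 without DKO-3 normoxia replicate 1, -0.0048 without DKS-5 hypoxia replicate 2, -0.04 without DKS-5 normoxia replicate 2 and -0.06 with the ACTB covariate.

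Few subunits differed between the lines beyond the spread of the arrays. Over both oxygen levels 1 of 76 members was called, where 9.11% of all genes were, and the 95% interval lay within 1 log2 unit of 0 for 76 of 76 members (90.9% of all genes). At 21% O2 the count was 0 (2.54% of all genes), and at 1% O2 it was 1 (4.37%). At an unadjusted p under 0.05 the counts were 6, 4 and 6, against 22.5%, 11.4% and 18.4% of all genes. The complex medians of DKS-5 minus DKO-3 over both oxygen levels lay between -0.06 (complex III) and 0.06 (complex V). Groups did not overlap at either oxygen level for ATP5PO, NDUFAB1 and UQCRC2, higher in DKS-5, and for ATP5F1C, lower, where 9.1% and 12.4% of all genes had such patterns.

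ATP5F1C, the gamma subunit that turns in the central stalk of complex V, was the member called over both oxygen levels. It gave 2273 and 2641 at 21% O2 and 2554 and 1990.0 at 1% O2 on the DKS-5 arrays, and 3311 and 3686 at 21% O2 and 3140.2 and 3167 at 1% O2 on the DKO-3 arrays. Every DKS-5 array lay below every DKO-3 array. The log2 difference was -0.50 ± 0.12, 1.41-fold (adjusted p = 0.0155), with -0.51 at 21% O2 (adjusted p = 0.167) and -0.48 at 1% O2 (adjusted p = 0.131).

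ATP5F1C has 3 more probe sets. In a fit over all probe sets, 205711_x_at differed by -0.68 ± 0.12 (adjusted p = 0.00153) and 208870_x_at by -0.67 ± 0.12 (adjusted p = 0.00189), and their signals of 1558 to 1948 and 1680.3 to 2179 in DKS-5 lay below those of 2807 to 2934 and 2873 to 3263 in DKO-3. The dimmer 214132_at went the other way at 0.37 ± 0.17 and did not pass (adjusted p = 0.239). The brightest probe set, 213366_x_at, and the 2 that share its direction all carry the suffix _x_at, which marks probes that may also match other transcripts, and the only one without it is the one that went the other way. The call was lost with the ACTB covariate (-0.49, adjusted p = 0.197) and without a trend in the spread (adjusted p = 0.0716). With the covariate 3.48% of all genes were called, against 9.11% without it. The ACTB ratio went largely with the line, so that fit cannot fully tell RNA quality and line apart. The call was also lost without DKS-5 normoxia replicate 1 (-0.44), DKO-3 hypoxia replicate 1 (-0.50) or DKO-3 normoxia replicate 2 (-0.46). The share of all genes called fell in those fits as well.

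ATP5MC3, a c-ring gene, was the member called at 1% O2. It gave 8863 and 7307 in DKS-5 and 5712 and 5462 in DKO-3 there, against 6596 and 7047 in DKS-5 and 7068 and 6736 in DKO-3 at 21% O2. The lines did not overlap at 1% O2 and were mixed at 21% O2. The difference was 0.53 ± 0.13 at 1% O2, 1.44-fold (adjusted p = 0.0340), and -0.02 at 21% O2. Hypoxia arrays lay above normoxia arrays in DKS-5 (0.24) and below them in DKO-3 (-0.30), the only member apart in opposite directions, and the difference of responses was 0.54 ± 0.18 (unadjusted p = 0.00992, adjusted p = 1.00).

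The ATP5MC3 call was lost under several alternatives. The other probe sets, 207507_s_at and 228168_at, differed by 0.14 (adjusted p = 0.665) and 0.25 (adjusted p = 0.610) at 1% O2. With the values as deposited the difference was 0.07 (adjusted p = 0.684), with quantile normalization 0.26 (adjusted p = 0.205), and with the mean of all probe sets 0.30 (adjusted p = 0.242). Leaving out any array other than DKS-5 hypoxia replicate 2 also lost the call, with differences from 0.39 to 0.56. Probe set 228168_at was lower in hypoxia in both lines, with 459 and 450.0 against 259 and 320.2 in DKS-5 and 394 and 370.2 against 245 and 234 in DKO-3, a difference of -0.63 ± 0.16 (adjusted p = 0.0908).

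**Figure D4:**
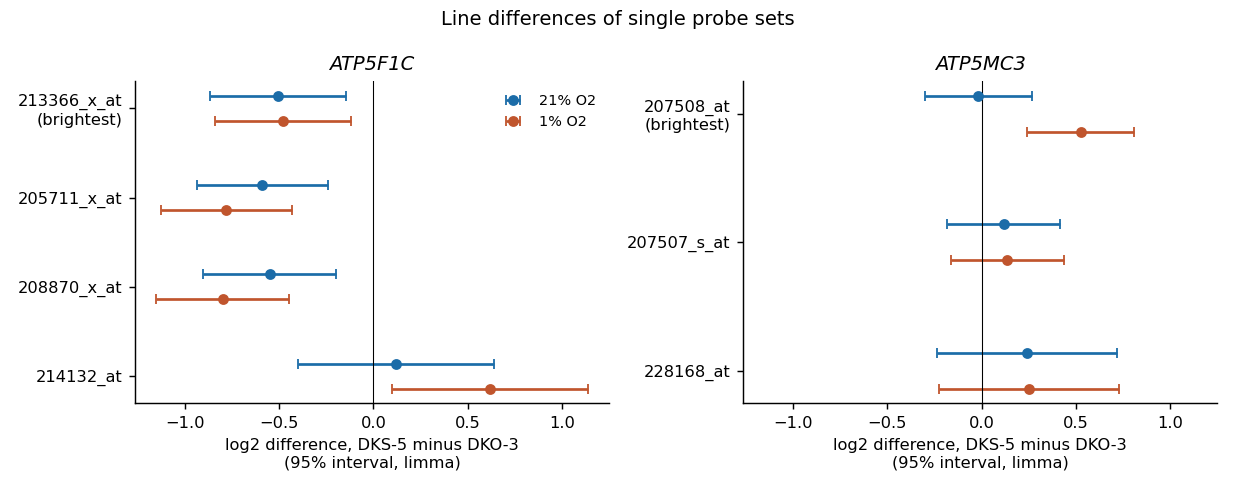
Log2 difference of DKS-5 minus DKO-3 (horizontal axis) at 21% and 1% O2 for the 4 probe sets of ATP5F1C and the 3 of ATP5MC3, with points for the difference and lines for its 95% interval. At 1% O2 the ATP5F1C probe sets run from -0.80 to 0.62, and the called ATP5MC3 probe set is at 0.53 with the others at 0.14 and 0.25.

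Other subunits came near the threshold between the lines. NDUFA2, an accessory subunit of complex I, gave 854 and 596 in DKS-5 and 1223 and 1297 in DKO-3 at 1% O2, a difference of -0.81 ± 0.23 (adjusted p = 0.0658). At 21% O2 its arrays overlapped, with 633 and 853 against 757 and 972. NDUFAB1, the mitochondrial acyl carrier protein, gave 2618 to 2840.0 on the DKS-5 arrays and 2153 to 2271 on the DKO-3 arrays, and its difference of 0.29 ± 0.11 did not pass (adjusted p = 0.123). SDHA was higher by 0.33 ± 0.14 in DKS-5, also without passing (adjusted p = 0.161), and NDUFB10 differed by -0.51 ± 0.22 (adjusted p = 0.176). Over both oxygen levels NDUFA2 differed by -0.51, ATP5PD of the complex V stalk by -0.34 and ATP5MC3 by 0.25, without passing. Without DKS-5 hypoxia replicate 1 the differences were -0.82 for NDUFB10, -0.64 for NDUFA2 and -0.56 for ATP5PD. Without DKS-5 hypoxia replicate 2 they were 0.42 for SDHA and 0.32 for ATP5MC3.

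Probe sets of the same subunit gene often did not share a direction. Of 41 members with several tested probe sets, 27 had probe sets of both signs in hypoxia (mean of both lines), 65.9% against 48.6% of all such genes, and 20 between the lines (mean of both oxygen levels), 48.8% against 49.5%. Among the 68 further probe sets, 0 were called in hypoxia (0.656% over all genes) and 4 between the lines (5.88%, against 6.07%), 2 of them those of ATP5F1C. NDUFB4 probe set 228940_at was higher in DKS-5 by 0.96 ± 0.21 (adjusted p = 0.0111), while the brighter one of that accessory subunit gave 0.58 at 21% O2 and -0.11 at 1% O2. UQCRB probe set 209065_at differed by -0.57 ± 0.16 (adjusted p = 0.0404), while the brighter one of that ubiquinone-binding subunit differed by -0.10. No gene had probe sets called in both directions.

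Among the 104 surrounding genes tested, 3 (2.88%, against 9.11% of all genes) were called between the lines over both oxygen levels, PDK1 as given above and the following. NDUFAF4, an assembly factor of complex I, gave 1093, 1164, 916 and 635 on the DKS-5 arrays and 724, 737, 418 and 558 on the DKO-3 arrays, normoxia first, with a difference of 0.63 ± 0.16 (adjusted p = 0.0218). POLG, the mitochondrial DNA polymerase, was lower in DKS-5, with a difference of -0.52 ± 0.14 (adjusted p = 0.0314). Both calls were lost with the ACTB covariate, at differences of 0.51 (adjusted p = 0.309) and -0.40 (adjusted p = 0.380). With it 3.48% of all genes were called, and the ACTB ratio went largely with the line. NDUFAF4 also lost its call without DKO-3 hypoxia replicate 1 (0.53), and POLG without DKS-5 normoxia replicate 1 (-0.49). The share of all genes called fell in those fits as well. At either oxygen level alone, 0 of the genes of these lists were called between the lines. Of all genes, 2.54% were called in normoxia and 4.37% in hypoxia.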

How the data were processed

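The authors' deposited values were linear MAS5 intensities per probe set of the array, per the submitters' processing notes; the software version and scaling target are not given in the sources used here. Arrays were scaled to a common 2% trimmed mean because the deposited ones differed by more than 10%, and log2(signal + 16) was taken. Probe sets naming several genes were left out, among them 10 symbols that would otherwise have matched. Genes with a mean above the 40th percentile of probe sets entered limma 3.58.1 in R 4.3.3 (lmFit, eBayes with a trend), fitted over all 8 arrays with a mean per group (4 residual degrees of freedom), with Benjamini-Hochberg adjustment over the 12735 genes and a threshold of 0.05. All log2 differences are on the log2(signal + 16) scale, which understates changes of dim genes, and ± gives the SE. The number of arrays limits the precision. Named members are those called, the 3 with the smallest p per complex for hypoxia and for the lines, and isoforms and subunits listed by name; surrounding lists name up to 4 genes each. The members and lists were chosen with earlier results of these data known. Alternatives were the scaling, pseudocount, filter, probe set rule, replicate block, ACTB covariate, spread estimate, arrays fitted and each array left out. Scripts were tested on simulated data.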

Additional observations from a re-analysis of the deposited data

How the results depend on the processing

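With the values as deposited, unscaled arrays moved the median of all genes by -0.22 in DKS-5 hypoxia, 0.17 in DKO-3 hypoxia, -0.39 in the difference of responses, -0.38 between the lines at 1% O2 and -0.19 over both oxygen levels; the member medians were then -0.22, 0.26, -0.57, -0.47 and -0.19, and 18 members were called at 1% O2 (18.6% of all genes) and 5 over both oxygen levels (13.9%). With the ACTB covariate the median difference of responses was -0.059. Between the lines at 1% O2, 0 members were called with no filter (1.10% of all genes) or the mean of all probe sets (3.84%). The same held with the ACTB covariate (1.01%), no trend (3.60%) or only the arrays compared (2.80%), against 4.37% in the main fit. Over both oxygen levels, 2 were called with quantile normalization or the mean of all probe sets and 0 with no trend, and at 21% O2 1 was called with only the arrays compared. Leaving out 1 array at a time leaves a group with 1 array, so only the medians of those fits are given here. The member medians then ran from -0.0092 to 0.23 in DKO-3 hypoxia, -0.24 to -0.0048 for the difference of responses, -0.041 to 0.17 between the lines at 21% O2 and -0.10 to 0.052 at 1% O2, and the COX4I2 to COX4I1 change from -0.28 to 0.014. The cause of these shifts was not tested. Leaving out the pseudogenes and non-coding RNAs, an alternative chosen after seeing the data, gave a member median of 0.05 in DKO-3 hypoxia and again 0 members called there.

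With the replicate number as a block, 2 members were called for hypoxia in both lines, NDUFA11 (adjusted p = 0.0169) and COX8A (adjusted p = 0.0296), and 2 between the lines at 1% O2, ATP5MC3 and NDUFA2; called genes in all rose from 152 to 325 and from 557 to 791. Same-numbered arrays of 2 groups correlated between -0.09 and 0.33 in their deviations, with 3 of the 6 above 0.1; this does not settle whether same-numbered arrays share a batch, and they were not treated as pairs.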
